A study of Mus musculus with 18 samples.

Results

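Fibroblasts sorted from ventral dermis were compared with fibroblasts sorted from dorsal dermis of the mouse trunk. The comparison took the 3 arrays titled Ventral and the 3 arrays titled Dorsal, 6 of the 18 arrays of the study, and covered 18193 genes. Ventral cells came from the ventral dermis of En1Cre; R26mTmG mice at postnatal day 30, and Dorsal cells from the dorsal dermis of the same genotype at the same age. Neither group was treated. In the R26mTmG allele a membrane-bound red protein gives way to a green one once Cre has acted, so green cells under En1Cre are cells in which, or in whose ancestors, the En1 driver was active. Both groups were sorted as green and not red, and cells were kept that lacked EpCAM, CD31, CD45, Tie2, the dead-cell dye DAPI and a marker that the labels spell Tie119. The green mark records the past activity of the driver and was used to select cells in both groups, so cells without it were not part of the comparison. Whether the green cells of both sites share an embryonic origin was not tested. Cranial and Oral cells, green cells of Wnt1Cre; R26mTmG mice at postnatal day 30, entered the fit for the estimate of spread. EPF (green) and ENF (red) cells of En1Cre; R26mTmG dorsal dermis are quoted for their levels only. Their labels give postnatal day 56, while the growth protocol gives 30 days for back skin. The sources do not say whether arrays of a group came from separate mice, so the spread between arrays may be technical. Each limma p and SE rests on a spread pooled over the 12 arrays of the fit, with a weight per group. An SE can thus be smaller or larger than the values of the 6 compared arrays alone would give.

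Engrailed-1, the product of En1, is a homeobox factor of embryonic patterning that is active in precursors of the trunk dermis. Dermis of the back arises largely from the dermomyotome of the somites, and dermis of the belly largely from lateral plate mesoderm. Fibroblasts of adult skin are known to keep transcription factors of their place of origin, among them Hox genes, whose order along 4 clusters follows the head-to-tail axis, and factors such as Zic1 of dorsal tissues or Hand2 of lateral mesoderm.

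All values are log2 expression after RMA (robust multi-array average, which combines the probes of a probe set), so a difference of 1 is a 2-fold ratio. The lower quartile of the 6 arrays was 3.99 to 4.10, and values around it are near background, and a difference from them is a lower bound on this scale. Across genes, Pearson's r ran from 0.981 to 0.997 within Ventral, from 0.946 to 0.975 within Dorsal, and from 0.961 to 0.991 between the groups. Dorsal 2 correlated with the Ventral arrays at 0.984 to 0.991 and with the other Dorsal arrays at 0.967 to 0.975, so it lay nearer to Ventral than to its own group. For Dorsal 1 these ranges were 0.965 to 0.969 and 0.946 to 0.967, and for Dorsal 3 they were 0.961 to 0.978 and 0.946 to 0.975. Each Dorsal array thus had its highest value with a Ventral array, and in Dorsal 2 alone the ranges did not overlap. Ventral 2 and Ventral 3, at 0.997, were the closest pair of the 6. The median SD per gene was 0.141 in Ventral and 0.281 in Dorsal, and 0.145 in Dorsal without Dorsal 1. The last value is an SD over 2 arrays and the others are over 3, so they are not on a par. Genes more than 1 log2 unit above all 5 other arrays numbered 913 in Dorsal 1, 165 in Dorsal 3, 34 in Ventral 1 and 7 in Dorsal 2. Genes more than 1 below all 5 others numbered 265 in Dorsal 3, 220 in Dorsal 1, 127 in Ventral 1 and 7 in Dorsal 2. Ventral 2 and Ventral 3 had 0 on either side. The ratio of the 3 prime to the 5 prime probe set of 18S RNA was 2.08 on the log2 scale in Dorsal 1, against 0.62 to 0.74 in the other 5 arrays. The same ratio for Gapdh was 2.27, 2.54 and 2.61 in Ventral, against 2.64, 2.67 and 2.88 in Dorsal, so every Dorsal array was above every Ventral array. For beta-actin it was 2.04, 2.40 and 2.83 in Ventral, against 2.47, 3.12 and 3.16 in Dorsal, with overlap. The poly-A spike-in probe sets averaged 7.70 in Dorsal 1, against 6.36 and 6.42 in the other Dorsal arrays and 6.65 to 7.09 in Ventral. The part of these differences in the results below was not tested.

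**Figure D1:**
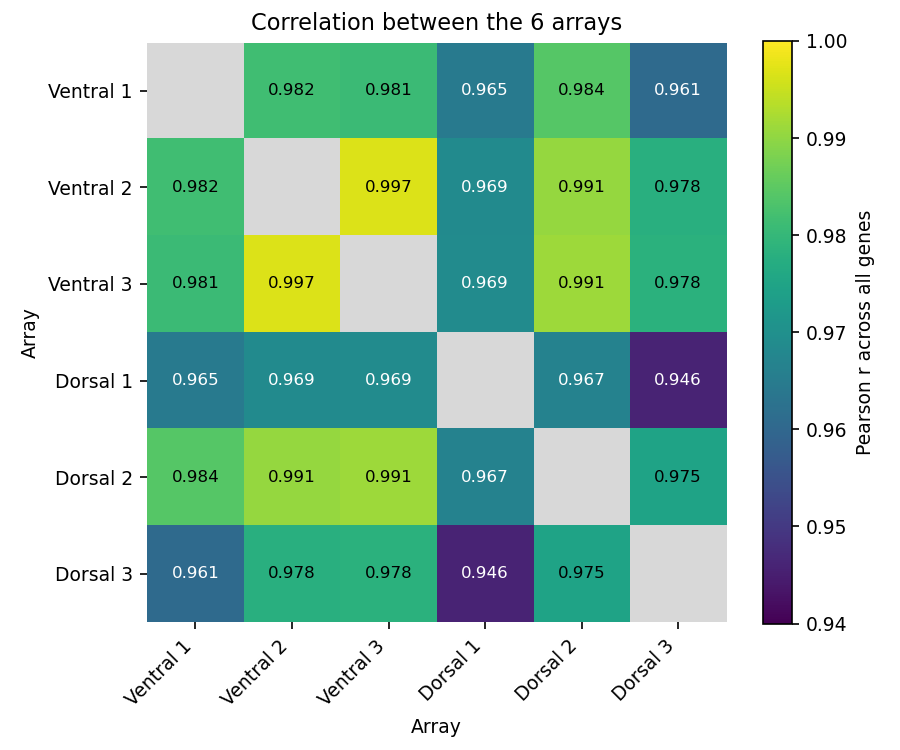
Pearson correlation across 18193 genes for each pair of the 3 Ventral and 3 Dorsal arrays, with arrays on both axes and the coefficient in each cell. Dorsal 1 and Dorsal 3 have the lowest value, 0.946, and Dorsal 2 is closer to the Ventral arrays than to the other Dorsal arrays. The highest value of each Dorsal array is with a Ventral array.

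Of 18193 genes, 1 was called at an adjusted p under 0.05 in limma (0.0055%), and it was lower in Ventral. No gene was called higher. At an unadjusted p under 0.05 there were 250 genes higher (1.37%) and 408 lower (2.24%) in Ventral, 3.62% in all. The 3 Ventral arrays lay above the 3 Dorsal arrays in 852 genes (4.68%) and below them in 989 (5.44%), 10.1% in all. Dorsal 1 was the outermost Dorsal array in many of these: it was the lowest in 579 of the 852 and the highest in 540 of the 989. By size alone, 40 genes were more than 1 log2 unit higher in Ventral and 96 lower, of which 27 and 33 had no overlap between the arrays.

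The called gene was Zic1, a zinc finger transcription factor of the dorsal neural tube and dorsal somites. Its level was 4.03, 4.51 and 4.88 in the 3 Ventral arrays, against 8.75, 10.08 and 9.95 in the 3 Dorsal arrays. The lowest Dorsal array stood far above the highest Ventral array, and the Ventral values were near background. Zic1 fell by 5.12 ± 0.34 on the log2 scale (SE), at 4.47 ± 0.43 in Ventral and 9.59 ± 0.74 in Dorsal (SD, n = 3 each; limma adjusted p = 3.74e-05), a 34.8-fold ratio that is a lower bound. The other probe set of the gene gave 3.45, 3.70 and 3.49 in Ventral, against 10.72, 9.95 and 9.27 in Dorsal, a difference of -6.44. When all 45037 probe sets were tested instead of genes, 2 were called, and both belong to Zic1. In the other groups the first probe set stood at 8.04 ± 0.14 in Cranial and 3.23 ± 0.06 in Oral, and at 10.93 ± 0.19 in EPF and 6.47 ± 0.39 in ENF. The green cells of the back thus had a high Zic1 level in both sets of arrays that sampled them, labelled Dorsal and EPF. These sets were unlike in other genes: Tek was at 3.97 in Dorsal and 10.20 in EPF, and Dpp4 at 4.80 and 11.36 (means). The Zic1 call held in 16 of 17 settings, with differences from -5.78 to -4.88. A fit on the 6 arrays alone ended it, with an adjusted p of 0.204 in limma and 0 genes called (533 at an unadjusted p under 0.05).

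Zic1 is on mouse chromosome 9, beside Zic4, and Hand2, the gene with the second smallest p, is on chromosome 8. Their promoters, from 250 bases before to 50 bases after the annotated start, are shown because these genes gave the largest difference in each direction. The sequences are those of RefSeq on GRCm38.p6, written 5′ to 3′ along the gene's strand, at chr9:91365719-91366018 on the minus strand for Zic1 and chr8:57320733-57321032 on the plus strand for Hand2. Capitals mark each CG dinucleotide, which reads CG on both strands. The Zic1 window holds 31 and the Hand2 window 17, and 10.6% and 31.4% of all 32851 promoter windows of this length hold as many or more, with a median of 7. These counts describe the letters of the windows. Neither methylation nor factor binding was measured in these cells.
Zic1: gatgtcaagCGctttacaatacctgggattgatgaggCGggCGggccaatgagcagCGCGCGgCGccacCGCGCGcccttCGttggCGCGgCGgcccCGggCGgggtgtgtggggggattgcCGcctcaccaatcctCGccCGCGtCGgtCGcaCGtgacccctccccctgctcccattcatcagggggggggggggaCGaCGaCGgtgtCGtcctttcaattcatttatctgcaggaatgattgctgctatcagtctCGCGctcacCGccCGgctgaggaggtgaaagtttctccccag
Hand2: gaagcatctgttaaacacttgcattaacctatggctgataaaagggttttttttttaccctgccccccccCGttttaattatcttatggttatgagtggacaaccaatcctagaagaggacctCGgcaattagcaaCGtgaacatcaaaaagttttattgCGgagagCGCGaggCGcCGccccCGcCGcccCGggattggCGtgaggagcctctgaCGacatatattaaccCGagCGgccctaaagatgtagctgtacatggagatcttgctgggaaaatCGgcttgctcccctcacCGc

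Zic4, another zinc finger factor of the family and chosen after its values were seen, was at 4.31, 4.20 and 4.17 in Ventral, against 4.60, 4.79 and 4.61 in Dorsal, near background in both and not called. Zic2 and Zic5 were near background in all 6 arrays, between 3.96 and 4.63. So the difference was called for Zic1 and for no other measured Zic gene.

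Hand2, a basic helix-loop-helix factor known from lateral plate mesoderm, limb buds and heart, had the largest positive difference of all genes. It was at 7.72, 6.77 and 6.62 in Ventral, against 4.13, 4.68 and 4.98 in Dorsal. The groups did not overlap, and the Dorsal values were near background. The difference was 2.44 ± 0.37 (SE), at 7.04 ± 0.60 and 4.60 ± 0.43 (SD, n = 3 each), and it was not called (limma adjusted p = 0.167). It was called in 8 of 17 settings, among them equal weights for all 12 arrays (adjusted p = 0.0157 in limma) and leaving out Dorsal 1 (0.0491), and over the alternatives the adjusted p ran from 1.93e-05 to 0.995. Its other 2 probe sets differed by 0.21 and 0.33, with a Ventral median of 4.77 in each and Dorsal values of 4.14 to 4.84, so only 1 of the 3 showed a large difference. Hand2 and the genes in the next paragraphs that had the smallest p after Zic1 were chosen after their values were seen.

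**Figure D2:**
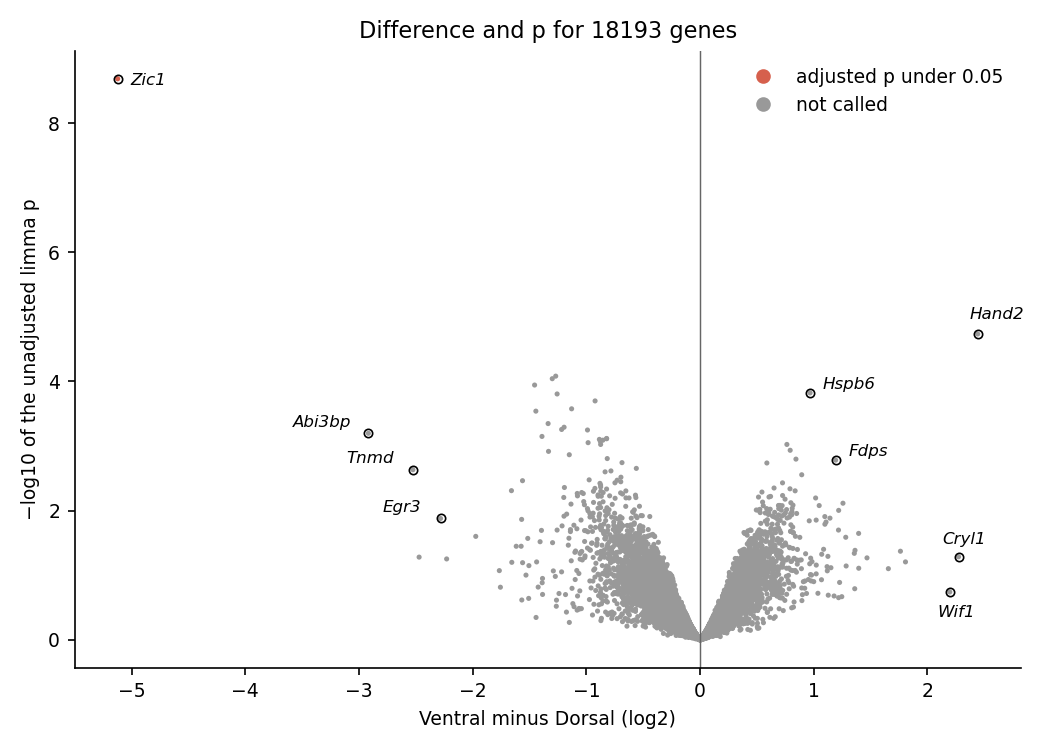
Ventral minus Dorsal difference in log2 units against −log10 of the unadjusted limma p for 18193 genes, 1 point per gene, with circled genes named. Zic1 lies alone at a difference of -5.12, and Hand2, at 2.44, lies at the other end of the axis without being called.

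Among 58 measured patterning factors of trunk and limb, 0 were called higher and 1 lower, Zic1, beside 0.0055% of all genes. At an unadjusted p under 0.05, 7 were higher and 4 lower, beside 1.37% and 2.24% of all genes. The median difference was 0.04, against -0.02 over all genes, and without Dorsal 1 it was -0.06. The following members of the list were chosen after their values were seen, and none was called. Tbx5, a T-box factor of forelimb and heart, was at 6.90, 7.40 and 7.15 in Ventral, against 5.90, 6.34 and 6.52 in Dorsal (difference 0.89). Nr2f2, an orphan nuclear receptor of mesenchyme, was at 8.39, 8.39 and 8.27, against 7.20, 7.96 and 7.81 (0.69). In both genes every Ventral array was above every Dorsal array. On the other side, Lhx8, a LIM homeobox factor, was at 5.30, 5.90 and 6.24 in Ventral, against 6.59, 6.71 and 6.79 in Dorsal (-0.88), again without overlap. Meox2, a homeobox factor of somites, was at 3.74, 4.26 and 4.40 in Ventral, against 4.33, 5.75 and 5.31 in Dorsal (-0.99), and Dorsal 1 lay among the Ventral arrays. Irx3, an Iroquois homeobox factor, was at 8.13, 7.95 and 8.05, against 7.90, 8.82 and 9.45 (-0.68), with Dorsal 1 below the Ventral arrays. En1 itself was at 3.88, 3.77 and 3.68 in Ventral, against 3.76, 4.06 and 4.08 in Dorsal, near background in both.

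Hox genes, which carry the head-to-tail code of the trunk, were measured for 33 genes, and none was called in either direction. At an unadjusted p under 0.05, 4 were higher and 0 lower, beside 1.37% and 2.24% of all genes. The 3 Ventral arrays lay above the 3 Dorsal arrays in 8 of the 33, beside 4.68% of all genes, and below them in 4, beside 5.44%. The median difference over the 33 genes was 0.11, and 0.02 without Dorsal 1. Of 16 Hox genes with a mean above 6 in either group, a level set by hand, 11 had the higher mean in Ventral. Over all genes, 8425 of 18193 had the higher mean in Ventral. This count of Hox genes includes Dorsal 1.

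Hoxc10, a posterior member of the HoxC cluster known from hindlimb and lumbar levels, had the largest difference of the Hox genes. It was at 9.69, 8.91 and 9.15 in Ventral, against 7.43, 8.25 and 8.42 in Dorsal. The groups did not overlap, and the difference was 1.22 ± 0.46 (SE), and 0.92 without Dorsal 1. EPF was at 8.14 ± 0.17 (SD, n = 3), near the Dorsal mean of 8.03 ± 0.52, while Cranial at 4.14 and Oral at 4.28 were near background. Hoxb6, of the trunk part of HoxB, was at 6.30, 5.27 and 5.55 in Ventral, against 4.38, 4.67 and 4.93 in Dorsal (1.05 ± 0.34), without overlap and highest in Ventral 1.

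The clusters differed in how their members lay. In HoxB, 8 of 9 genes had a difference above 0 and the median was 0.49, though 0.20 without Dorsal 1, where the cluster mean was 4.98, against 5.48 and 5.47 in the other Dorsal arrays and 5.60 to 5.91 in Ventral. In HoxC, 4 of 7 were above 0 and the median was 0.05, and -0.28 without Dorsal 1. In HoxA, 5 of 9 were above 0 (median 0.11), led by Hoxa5 at 8.61, 8.83 and 8.44 in Ventral, against 7.23, 8.34 and 8.32 in Dorsal. In HoxD, 3 of 8 were above 0 (median -0.06). Hoxd8 was at 6.93, 8.38 and 8.32 in Ventral, against 9.05, 8.29 and 8.93 in Dorsal, and the groups overlapped. Dorsal 1 was the lowest array for the mean of HoxB and of HoxC, where it was at 7.42, against 8.09 and 8.01 in the other Dorsal arrays.

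**Figure D3:**
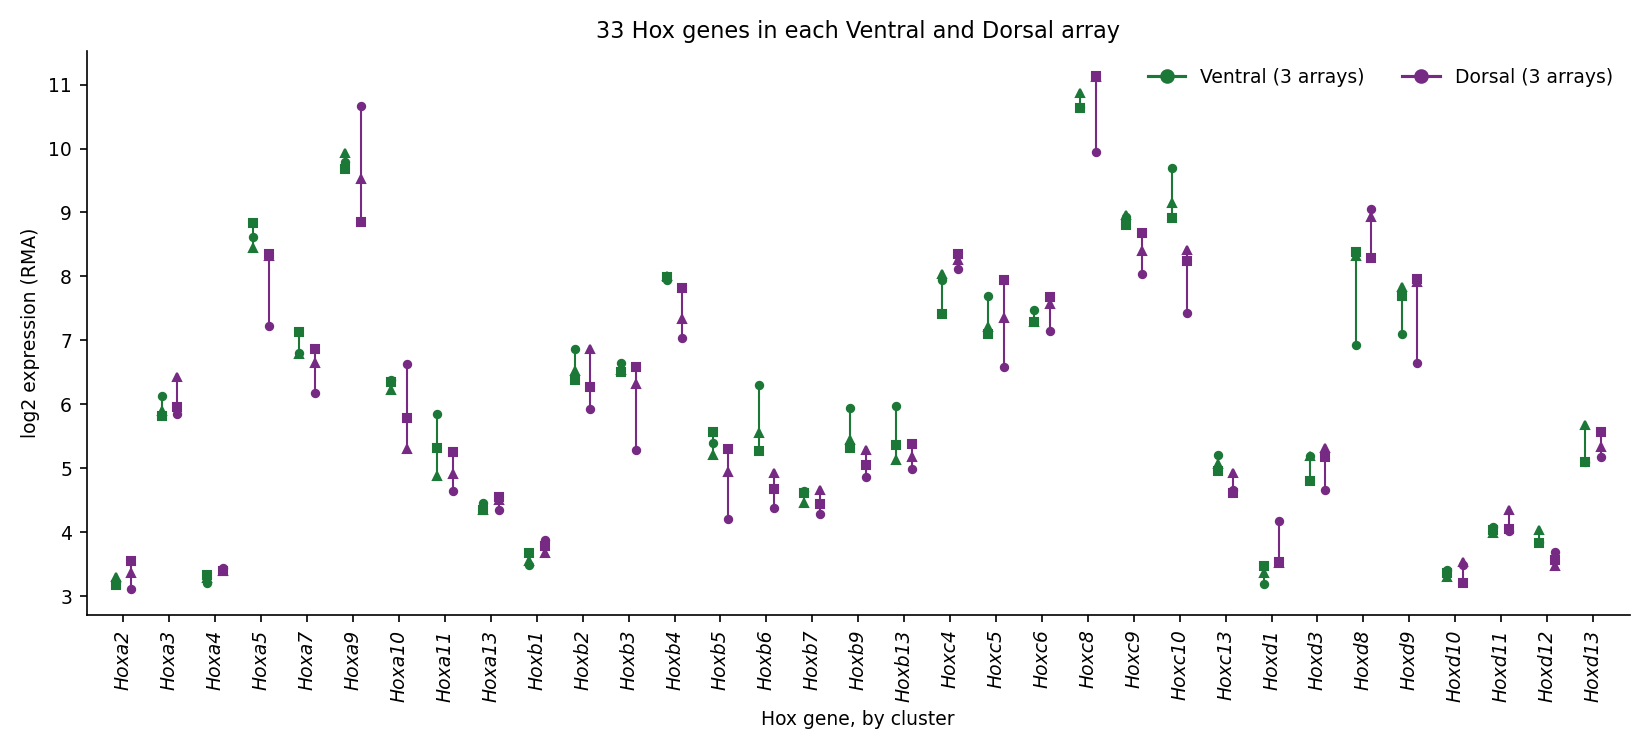
Log2 expression of 33 Hox genes in each of the 3 Ventral (green, left of each pair) and 3 Dorsal (purple, right) arrays, with circles, squares and triangles for replicates 1, 2 and 3 and lines from the lowest to the highest array. Hoxc10 and Hoxb6 show Ventral above Dorsal without overlap, and Dorsal 1 is at the low end of most long Dorsal lines, though at the high end for Hoxa9 and Hoxa10.

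The 20 genes with the smallest p after Zic1, Hand2 among them, had adjusted p from 0.167 to 0.716 in limma and were not called. All 20 were without overlap between the groups, 2 were higher in Ventral and 18 lower, and the ratios of the group means ran from 1.77 to 7.55. Since these genes were picked for a small p, their lack of overlap is a description. Hspb6, a small heat shock protein of muscle, was the other gene higher in Ventral, at 7.87, 7.66 and 7.63, against 6.35, 7.01 and 6.90 in Dorsal (difference 0.97 ± 0.18, SE). Its ranges were narrow, and Cranial (8.58) and Oral (8.89) were higher than both.

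The 18 lower genes are given by what they encode. Postn encodes periostin, a matricellular protein that binds collagen. It was at 12.19, 11.93 and 11.88 in Ventral, against 13.31, 13.21 and 13.13 in Dorsal, a difference of -1.22 ± 0.26 (SE; adjusted p = 0.716 in limma). The groups were far apart for their spread, with an SD of 0.17 in Ventral and 0.09 in Dorsal (n = 3 each). Postn was called in 4 of 17 settings, equal array weights among them (adjusted p = 0.0262). The smallest adjusted p of any setting was 0.000128. All 3 Ventral arrays also lay below the means of Cranial, 13.19 ± 0.24, and Oral, 13.28 ± 0.19 (SD, n = 3).

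Tgfbi, a secreted matrix protein induced by TGF-beta, was at 11.08, 11.11 and 11.26 in Ventral, against 11.87 to 12.21 in Dorsal, a difference of -0.88. Its other 3 probe sets gave -1.15, -0.71 and -1.26, so all 4 were lower in Ventral. Abi3bp, a matrix protein that binds the SH3 domain of ABI3, had the largest difference of the 20, -2.92 ± 0.65 (SE). It was at 3.24, 4.53 and 4.88 in Ventral, against 5.34, 7.61 and 8.46 in Dorsal. Ventral was near background, and Dorsal 1 lay nearer to Ventral than to the other Dorsal arrays. Without Dorsal 1 the difference was -3.82 and it was called (adjusted p = 0.0143 in limma).

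Lpar4, a receptor for lysophosphatidic acid, was at 7.68, 7.78 and 7.89 in Ventral, against 9.04, 9.07 and 9.14 in Dorsal (-1.30 ± 0.23, SE). The SD was 0.10 in Ventral and 0.05 in Dorsal. Lpar4 was called with equal array weights (adjusted p = 0.00547 in limma) and in 4 of 17 settings in all. One of its other probe sets differed by -1.64 and the last by 0.12, at a level near background. Fzd1, a Wnt receptor, was at 8.71, 8.60 and 8.56 in Ventral, against 9.83, 9.33 and 10.09 in Dorsal (-1.13 ± 0.23). Adgrd1, an adhesion G protein-coupled receptor, was at 4.85, 5.41 and 5.07, against 6.01, 6.43 and 7.26 (-1.46 ± 0.26). Its Dorsal values spread over more than 1 log2 unit, with Dorsal 3 highest. Cmklr1, the chemerin receptor, differed by -0.99 ± 0.22, and Efnb2, the guidance ligand ephrin-B2, by -1.44 ± 0.29, and both were lower in every Ventral array. With the probe sets of each gene averaged the differences were smaller, -0.70 for Fzd1, -0.48 for Cmklr1 and -0.62 for Efnb2.

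Casp1, the inflammatory caspase, was at 6.57, 6.51 and 6.16 in Ventral, against 7.66, 7.29 and 8.10 in Dorsal (-1.27 ± 0.22, SE). Cemip, which takes part in the breakdown of hyaluronan, differed by -1.34 ± 0.28, and Csrp2, a LIM domain protein of smooth muscle, by -1.39 ± 0.31. Csrp2 was at 9.20, 9.24 and 9.24 in Ventral, against 11.26, 9.72 and 10.87 in Dorsal, so that Dorsal 2 was near the Ventral arrays. Trp53inp1, a p53-induced stress protein, differed by -0.82, Arap2, a GTPase-activating protein, by -1.26, Ankrd44 by -1.20, Klhl24 by -0.85, Abca7, a lipid transporter, by -0.82, Rpl39l, a ribosomal protein of the L39 type, by -0.92 and the predicted gene Gm19710 by -0.89. In all of these every Ventral array was the lower one. With probe sets averaged the difference was -0.58 for Cemip, -0.61 for Arap2, -0.37 for Ankrd44 and -0.52 for Trp53inp1.

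**Figure D4:**
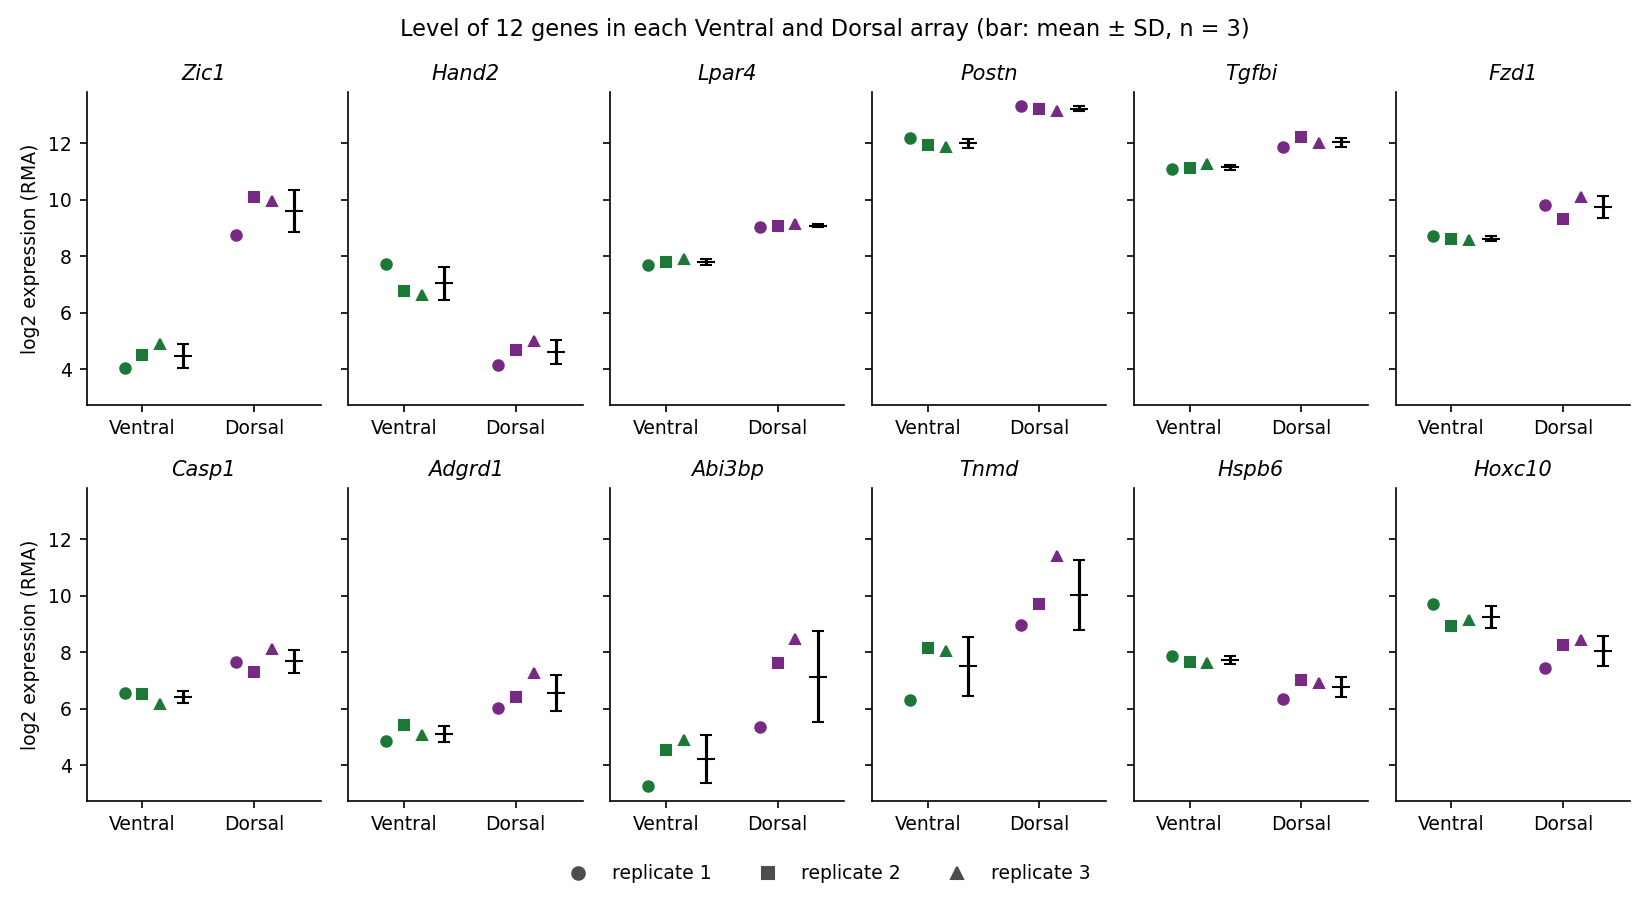
Log2 expression of 12 genes in each array, Ventral (green) left of Dorsal (purple), with symbols for replicates 1 to 3 and the mean ± SD of each group beside them (n = 3). Zic1 has the widest gap between the groups, and Lpar4, Postn and Tgfbi have narrow groups that do not overlap.

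Matrix genes outside that selection were not called either. Of 28 collagens 0 were called, 7 had a difference above 0, and the median was -0.31, against -0.02 over all genes. At an unadjusted p under 0.05, 0 were higher and 5 lower, beside 1.37% and 2.24% of all genes. The median kept its sign without any 1 array, from -0.44 without Dorsal 1 to -0.14 without Dorsal 3, and the mean over the list was 8.83 to 8.94 in Ventral, against 9.04, 9.16 and 9.51 in Dorsal. Col8a1, a short-chain collagen of vessel and basement membrane, had the largest difference, -1.97 ± 0.78 (SE). It was at 9.86, 7.49 and 7.36 in Ventral, against 11.09, 9.64 and 9.90 in Dorsal, and Ventral 1 lay among the Dorsal arrays. Without Ventral 1 the difference was -2.78 and it was called, and with probe sets averaged it was -1.22.

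Of 14 small leucine-rich proteoglycans, which bind collagen fibrils, 0 were called and the median was -0.07, with a range from -0.25 without Dorsal 1 to 0.09 without Dorsal 3. Lum, which encodes lumican, was at 5.65, 9.55 and 9.62 in Ventral, against 8.82, 8.68 and 12.02 in Dorsal. Ventral 1 was lowest and Dorsal 3 highest, and the other 4 arrays lay within 1 log2 unit. Of 37 genes of elastic fibres, glycoproteins and crosslinking 0 were called (median -0.16), with 0 higher and 4 lower at an unadjusted p under 0.05, beside 1.37% and 2.24% of all genes. Its median was -0.03 without Dorsal 3, -0.04 without Ventral 1 and -0.28 without Dorsal 1, and Postn had the largest difference. Of 27 matrix proteases and inhibitors 0 were called (median -0.22, -0.05 without Dorsal 1 and -0.34 without Dorsal 2), again 0 higher and 4 lower without adjustment. Mmp13, collagenase 3, was at 5.41, 4.03 and 3.95 in Ventral, against 7.20, 6.68 and 3.82 in Dorsal, so Dorsal 3 stood with the Ventral arrays. Tnmd, which encodes the tendon membrane protein tenomodulin and led 12 tendon and ligament genes, was at 6.29, 8.16 and 8.03 in Ventral, against 8.95, 9.72 and 11.39 in Dorsal (-2.53 ± 0.66, SE). The groups did not overlap, yet Tnmd was not called, and the median of its list was -0.02.

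None of the signalling lists had a called member. Of 39 Wnt pathway genes 0 were called and the median was 0.03, and -0.09 without Ventral 2 and 0.10 without Dorsal 3. Wif1, a secreted Wnt inhibitor, had the largest difference, 2.20 ± 1.55 (SE), with a wide spread in both groups. It was at 3.24, 8.06 and 8.10 in Ventral, against 6.32, 2.85 and 3.65 in Dorsal. Ventral 1 lay with the low Dorsal arrays and Dorsal 1 lay between. Without Ventral 1 the difference was 3.81 and it was called. Sfrp2, a secreted Wnt modulator, and Lgr5, a receptor for R-spondins, both chosen after their values were seen, were also low in Ventral 1 alone, at 7.40 and 7.17, against 9.88 or more and 9.40 or more in the other 5 arrays.

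Of 36 BMP and TGF-beta genes 0 were called (median -0.13, 0.05 without Dorsal 3 and -0.38 without Dorsal 2). Bmp4, a BMP ligand, was at 6.31, 7.34 and 7.47 in Ventral, against 5.56, 6.60 and 6.47 in Dorsal (0.83 ± 0.39, SE), and Ventral 1 lay among the Dorsal values. Of 32 FGF, IGF and PDGF genes 0 were called (median -0.12, and 0.02 without Ventral 1). Igfbp3, which binds insulin-like growth factors, was at 7.58, 10.75 and 10.84 in Ventral, against 10.32, 9.91 and 12.06 in Dorsal. Of 25 retinoic acid and Hedgehog genes 0 were called (median -0.01, from -0.08 without Ventral 3 to 0.06 without Ventral 1). Ptch1, the Hedgehog receptor and target, was at 7.80, 6.96 and 7.06 in Ventral, against 9.03, 7.04 and 7.72 in Dorsal. In both genes the groups overlapped. Of 29 chemokine, cytokine and complement genes 0 were called (median -0.11, 0.09 without Dorsal 3 and -0.26 without Dorsal 2), and Il33, an alarmin cytokine, was at 4.69, 7.38 and 7.39 in Ventral, against 5.55, 7.40 and 9.21 in Dorsal.

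Lists of cell state followed single arrays. Of 35 cell cycle genes 0 were called, although 34 had a difference above 0 and the median was 0.44. The mean over the list was 9.07, 8.88 and 8.83 in Ventral, against 9.53, 8.81 and 7.10 in Dorsal. In 27 of the 35 genes Dorsal 3 was more than 1 log2 unit below all 5 other arrays, and without it the median was -0.26. Mcm6, a subunit of the replicative helicase, was at 9.87, 9.78 and 9.84 in Ventral, against 10.17, 9.60 and 7.18 in Dorsal. Of 19 cholesterol synthesis enzymes 0 were called (median 0.28, and -0.07 without Dorsal 3). Fdps, farnesyl diphosphate synthase, was at 8.72, 8.09 and 7.91 in Ventral, against 7.04, 7.44 and 6.67 in Dorsal (1.19 ± 0.30, SE), without overlap.

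Interferon-inducible genes ran the other way in Dorsal 3. Of 29 genes 0 were called, 4 had a difference above 0, and the median was -0.40, and -0.04 without Dorsal 3. The list mean was 7.15, 8.07 and 8.09 in Ventral, against 8.03, 7.44 and 9.01 in Dorsal. Ventral 1 was thus the lowest array and Dorsal 3 the highest, and the other 4 lay between. Rsad2, the antiviral protein viperin, was at 5.91, 7.36 and 7.40 in Ventral, against 8.45, 5.90 and 10.13 in Dorsal. Of 35 immediate early and stress genes 0 were called (median -0.17, and -0.00 without Dorsal 3), with 2 higher and 6 lower at an unadjusted p under 0.05, beside 1.37% and 2.24% of all genes. Egr3, a zinc finger factor of the early response, was at 4.27, 3.84 and 3.72 in Ventral, against 5.04, 4.16 and 9.47 in Dorsal. Its difference of -2.28 ± 0.79 (SE) came with a high value in Dorsal 3 alone.

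**Figure D5:**
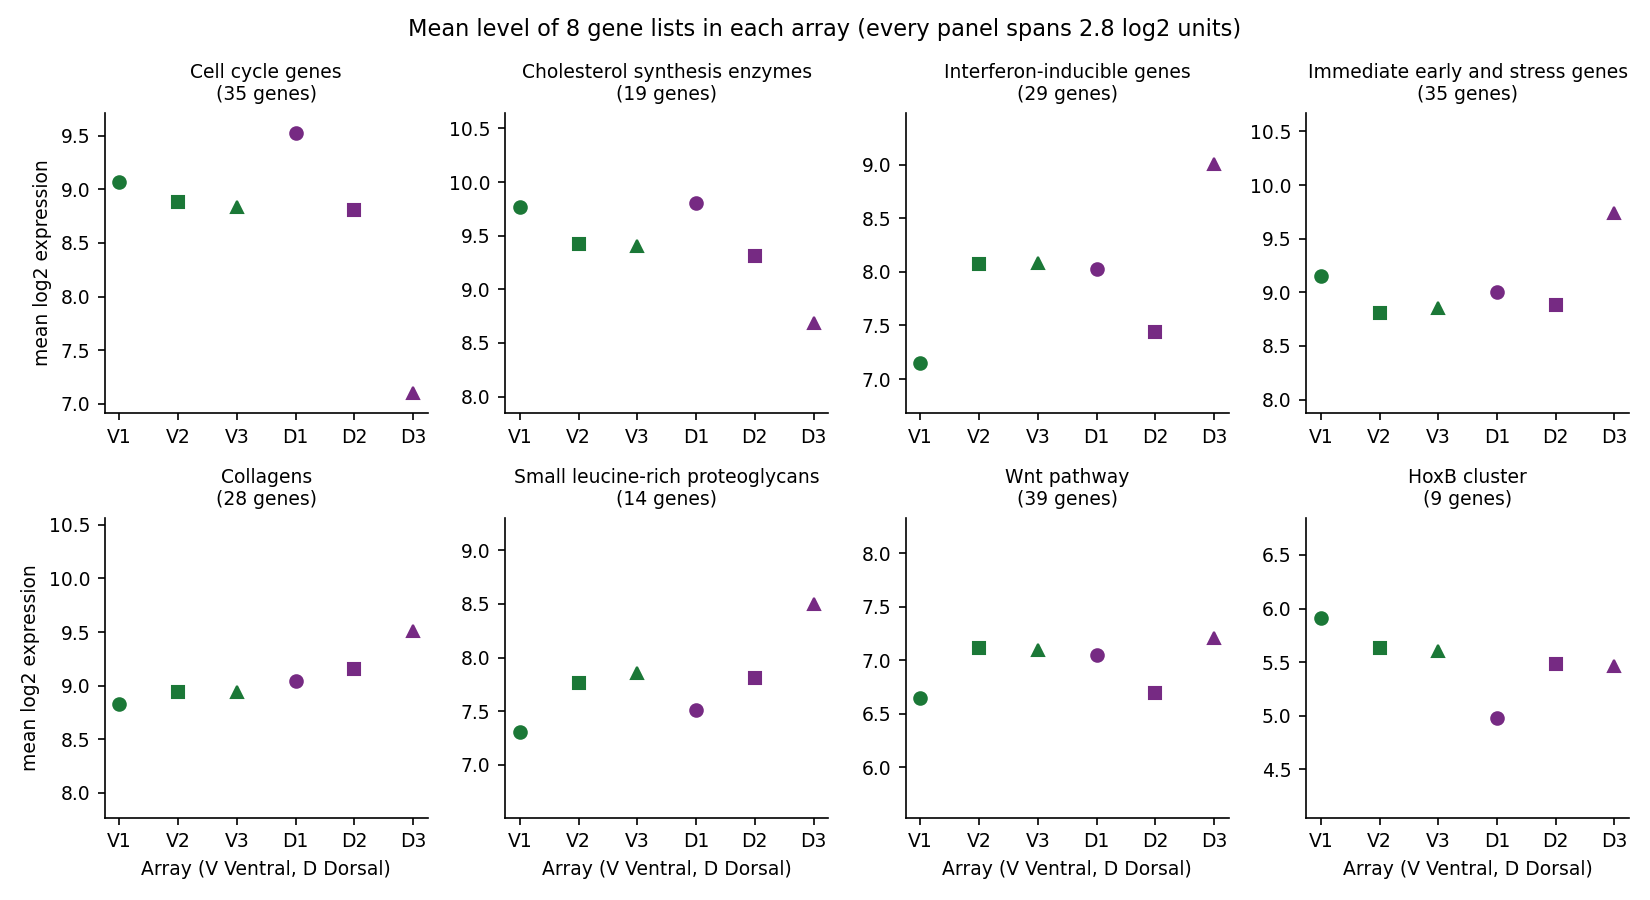
Mean log2 expression of 8 gene lists in each array, V1 to V3 for Ventral (green) and D1 to D3 for Dorsal (purple), on panels of equal height. Dorsal 3 is lowest for cell cycle genes at 7.10 and highest for interferon-inducible genes at 9.01, and for the HoxB cluster Dorsal 1 is lowest at 4.98.

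Genes with the widest spread showed the same arrays. In Dorsal, the 10 genes with the largest SD included Cryl1, Laptm5, Hp, Reg1, Agtr2, Xaf1, Steap4, Iigp1, Ifi27l2a and Egr3. Cryl1, a crystallin-related enzyme, was at 12.43, 12.42 and 12.52 in Ventral, against 5.80, 12.44 and 12.32 in Dorsal. Its other 3 probe sets gave 6.67, 6.23 and 7.47 in Dorsal 1, which was the highest of the 6 arrays for each of them, so the low value of Dorsal 1 rested on 1 probe set. Laptm5, a lysosomal membrane protein of blood cells, was at 12.15, 12.07 and 11.99 in Ventral, against 7.31, 11.95 and 11.67 in Dorsal, and none of its other 4 probe sets was above 5.87 in any of the 6 arrays. Of 21 genes that Dorsal 1 had more than 2 log2 units below all other arrays, 18 had another probe set, and in 3 of these that probe set was also lower by more than 1. For Dorsal 3 the same numbers were 29, 19 and 13.

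Dorsal 3 was high for Agtr2, the type 2 angiotensin receptor, at 9.75, against 4.40 and 4.80 in the other Dorsal arrays and 3.58, 6.45 and 6.31 in Ventral. It was also the highest for Reg1, a secreted lectin (11.66), and for the interferon-inducible genes Ifi27l2a (11.25) and Iigp1 (11.75). Hp, which encodes haptoglobin, split both groups. It was at 5.73, 11.15 and 11.08 in Ventral, against 12.90, 6.76 and 12.63 in Dorsal, so Ventral 1 and Dorsal 2 were low and the other 4 arrays high. Steap4, a metalloreductase, had the same 2 arrays lowest, at 5.40 in Ventral 1 and 5.23 in Dorsal 2, against 7.66 or more elsewhere. Xaf1, an interferon-inducible factor, was lowest in Dorsal 2 at 4.24, against 7.23 or more in the other 5 arrays.

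In Ventral, the 5 genes with the largest SD were Egfl6, Hp, Wif1, Ndnf and Pkp2, and in each of them Ventral 2 and Ventral 3 agreed and Ventral 1 stood apart. Egfl6, a secreted EGF-like protein of the dermal matrix, was at 4.18, 10.15 and 10.22 in Ventral, against 9.49, 7.97 and 10.54 in Dorsal. Ndnf, a secreted neurotrophic protein, was at 4.48, 8.89 and 9.01, against 7.14, 6.11 and 9.98. Pkp2, the desmosomal protein plakophilin 2, was at 9.02, 4.84 and 4.72, against 6.57, 6.68 and 4.80. Ventral 1 was the lowest of the 6 arrays for Egfl6 and Ndnf and the highest for Pkp2. It was also highest for the contractile genes Cnn1 (10.33, against 6.70 to 8.01) and Myh11 (5.96, against 3.88 to 4.68), and Myh11 was chosen after its values were seen.

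Markers of fibroblast subsets had no called member, as was so for nearly all genes. Of 14 papillary, 15 reticular and hypodermal and 14 adventitial genes, 0 were called in each list, with medians of 0.04, -0.10 and -0.31. All Ventral arrays were above all Dorsal arrays in 3 of the 14 papillary genes, beside 4.68% of all genes, and below them in 0, beside 5.44%. The papillary median ran from -0.14 without Ventral 3 to 0.21 without Ventral 1, and the reticular one from -0.46 without Dorsal 1 to 0.26 without Dorsal 3. Ackr3, a scavenging chemokine receptor that led the adventitial list, was at 5.53, 9.38 and 9.33 in Ventral, against 10.28, 6.58 and 9.99 in Dorsal. Of 16 general fibroblast markers 0 were called (median -0.24). Pdgfra, the receptor that defines dermal fibroblasts, was at 10.71, 11.94 and 11.96 in Ventral, against 11.85, 11.47 and 12.27 in Dorsal, high in all 6 arrays and lowest in Ventral 1. Dpp4, which encodes the surface peptidase CD26, was at 4.56, 4.22 and 4.83 in Ventral, against 5.03, 4.95 and 4.41 in Dorsal, and at 11.36 ± 0.79 in EPF and 11.73 ± 0.05 in ENF (SD, n = 3 each). Both groups were near background for a gene that was high in EPF and ENF. Dorsal and EPF are both labelled as green cells of dorsal dermis, and the cause of their unlike Dpp4 levels was not tested.

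Of the genes of the sort gate, 3 were near background. Pecam1 (CD31) was at most 4.14 in Ventral and at most 4.15 in Dorsal, Ptprc (CD45) at 4.18 to 4.27 and 3.87 to 4.08, and Tek (Tie2) at 3.61 to 3.96 and 3.96 to 3.98. The mean of Tek was 10.20 in EPF and 10.46 in ENF. Epcam was at 8.66, 8.71 and 8.60 in Ventral, against 7.47, 8.86 and 8.96 in Dorsal by the probe set used, and at 4.56, 4.62 and 4.53, against 6.08, 4.70 and 4.68 by the other, so its probe sets disagree, and Dorsal 1 was the array that stood apart in both. Acta2, smooth muscle actin, was at 13.21 to 13.64 in Ventral and at most 13.71 in Dorsal, with the lowest value in Dorsal 3.

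Marker lists of other cell types had no called member in either direction. The list mean ran from 4.87 to 4.92 in Ventral and from 4.87 to 5.03 in Dorsal for 21 keratinocyte and hair follicle genes, where Dsp, desmoplakin, was at 5.92 in Dorsal 1, against 3.20 to 3.69 in the other 5 arrays. For 20 endothelial genes it ran from 5.25 to 5.35 and from 5.13 to 5.28, and for 25 leukocyte genes from 5.31 to 5.35 and from 4.85 to 5.37. In these lists 6, 6 and 3 members had a mean over the 6 arrays at or below the lower quartile. Flt1, a VEGF receptor of endothelium, was at 7.40, 8.80 and 8.44 in Ventral, against 8.13, 7.32 and 7.22 in Dorsal, and the groups overlapped.

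For 25 skeletal muscle genes the list mean ran from 4.71 to 4.95 in Ventral and from 4.65 to 4.91 in Dorsal, for 13 Schwann cell genes from 6.13 to 6.18 and from 5.93 to 6.50, and for 17 genes of the adipocyte lineage from 6.18 to 6.77 and from 6.33 to 7.08. Cd36, a fatty acid transporter, was at 3.84, 3.87 and 3.88 in Ventral, against 5.81, 3.92 and 5.87 in Dorsal (-1.33 ± 0.32, SE), with Dorsal 2 at the Ventral level. Without Dorsal 2 it differed by -1.97 and was called. For 12 melanocyte genes the mean ran from 5.67 to 6.39 and from 5.73 to 5.97. Mlana, a melanosome protein, was at 5.47, 6.54 and 6.43 in Ventral, against 4.46, 5.41 and 4.79 in Dorsal (1.26 ± 0.40), without overlap. Whether a change in cell number or in RNA per cell lies behind such differences cannot be told apart in sorted bulk samples. Other members with the largest difference of their list were not called either. Myh3, an embryonic myosin, was at 4.17, 7.18 and 6.67 in Ventral, against 7.71, 4.71 and 4.35 in Dorsal, and Esr1, the estrogen receptor, at 6.02, 5.13 and 5.40, against 5.18, 4.51 and 8.07, with overlap in both. Egr2, a zinc finger factor of Schwann cells, differed by -0.99, Sox9, a factor of cartilage, by -0.50, Hba-a2, an alpha globin, by -0.50 and Bnc1, a zinc finger factor of mesothelium, by 0.32. In the mural, bone and cartilage, dermal papilla, mammary, mesothelial and erythroid lists the median difference was between -0.09 and 0.13.

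Transcripts of the sex chromosomes differed between arrays within both groups. Xist, a noncoding RNA made from an inactive X, was at 10.48 or more in all 6 arrays. Eif2s3y, a Y-linked translation factor gene, was at 7.36, 4.89 and 4.84 in Ventral, against 7.81, 6.88 and 6.92 in Dorsal, and at 3.33 in Cranial and 3.24 in Oral. It was highest in Dorsal 1 and, within Ventral, in Ventral 1. In Ventral 2 and Ventral 3 it was lower than in any other of the 6 arrays, yet above the Cranial and Oral means. Averaged over its 2 probe sets, the Ventral minus Dorsal difference of Eif2s3y was -0.80, against -1.51 by the probe set used. Without Ventral 1, the setting in which Col8a1 and Wif1 were called, Eif2s3y was called as well (-2.34, limma adjusted p = 0.000243). That setting leaves only Ventral arrays with a low Eif2s3y level, so site and this level cannot be told apart in it. The labels give no sex. The part of the sex of the mice in the results was not tested.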

How the data were processed

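Expression was measured with Affymetrix Mouse Genome 430 2.0 arrays, per the labels' protocols. The authors deposited log2 values after RMA, per the submitters' processing notes, and its version is not given. Of 45101 probe sets, 64 were controls, 34945 carried 1 gene symbol in the platform annotation, 932 several and 9160 none. Where several probe sets matched 1 of the 18193 genes, that with the highest 18-array mean stood for it.

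Ventral minus Dorsal was tested with limma 3.58.1 in R 4.3.3 on the 12 arrays of Ventral, Dorsal, Cranial and Oral. Each group had its own variance weight (1.085 for Ventral, 0.278 for Dorsal), and Benjamini-Hochberg adjustment ran over all genes, with a threshold of 0.05. The script was tested on simulated data. The 37 lists are described by counts and medians. The number of arrays limits the precision: 3 against 3 arrays cannot give an exact permutation p below 0.1, and the median SE of a difference was 0.228. The text names the called genes without overlap, in a list with no called member the 1 that differed most, the genes with the largest SD in each group, and genes of the sort gate. Members and lists were chosen with earlier results of these data known. Tables and plots were made in Python 3.11.15 (matplotlib 3.10.9, numpy 2.4.6, pandas 2.3.3).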

Additional observations from a re-analysis of the deposited data

How the results depend on the processing

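The count of called genes was 1, and 1 with dim genes left out, with probe sets averaged, after a second quantile normalization and with the replicate number as a block. It was 5 without weights, 2 with an intensity trend and robust eBayes, 0 on the 6 arrays alone and 952 with a weight for each array, which gave Dorsal 2 a weight of 3.853 and Dorsal 1 one of 0.086. Leaving out 1 array gave 1 to 12 genes: 6 without Dorsal 1, 2 without Dorsal 2, 12 without Ventral 1 and 2 without Ventral 3. Chosen after seeing the data, leaving out Dorsal 1 with Ventral 1 gave 114, and leaving out Dorsal 1 with Dorsal 3, so that the lone Dorsal array is assumed to vary like the other groups, gave 60. Lists with a called member numbered 1, then 2 without weights, 34 with a weight for each array, 0 on the 6 arrays, 1 to 8 without 1 array, and 20 and 6 under the added settings. Zic1 was among the called genes wherever any was called. The cause of these shifts was not tested.

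The sign of the difference turned for genes that were not called in the fit as reported. With a weight for each array it became 2.16 for Ackr3, which was then called higher in Ventral (limma adjusted p = 0.0441), -0.13 for Cnn1, 0.59 for Esr1, 0.45 for Igfbp3, 0.34 for Lum and 1.05 for Rsad2. Leaving out 1 array gave -2.06 to 0.40 for Ackr3 and -1.60 to 0.0279 for Igfbp3, both highest without Ventral 1, and -1.25 to 0.11 for Dsp, highest without Dorsal 1. It gave -1.11 to 0.67 for Esr1 and -1.82 to 0.0111 for Il33, both highest without Dorsal 3, and -0.0519 to 1.44 for Mcm6 and -0.20 to 1.48 for Myh3, both lowest without Dorsal 3. Myh3 was also at -0.02 without Dorsal 2 and -0.17 without Ventral 2. Without Dorsal 1 and Ventral 1 it was 1.07 for Ackr3 and 0.0784 for Dsp, and without Dorsal 1 and Dorsal 3 it was 1.50 for Ackr3, 1.00 for Esr1, 0.23 for Ptch1 and 0.99 for Rsad2. The cause was not tested.

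The median SD per gene in Dorsal, 0.281, was 0.145 to 0.293 without 1 Dorsal array, where fewer arrays entered the SD. Of the 37 list medians 15 kept 1 sign whichever of the 6 arrays was left out. Whether arrays with the same number belong together was not settled. Their deviations from the group means correlated at 0.132, -0.099 and 0.198, and those of the other pairs at -0.239 to 0.207. Deviations from a group mean depend on each other within a group, so these values cannot decide it. Levels near background limit what can be said of Zic1 in Ventral and Hand2 in Dorsal.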
